A study of Saccharomyces cerevisiae with 6 samples.

Results

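Glycogen is the branched glucose store of budding yeast, and the genes described here are 10 genes of its synthesis and breakdown, taken by their systematic names from the 7032 genes counted in transient transcriptome sequencing (TT-seq) of *dbp2Δ* and wild-type cells. All 10 passed the filter on low counts and are among the 5943 genes tested. Synthesis starts on a glycogenin primer (Glg1 or Glg2), which glycogen synthase (Gsy1 or Gsy2) extends from UDP-glucose and the branching enzyme Glc3 branches. UDP-glucose is made from glucose 6-phosphate by phosphoglucomutase (mainly Pgm2) and UDP-glucose pyrophosphorylase (Ugp1). Breakdown is carried out by glycogen phosphorylase (Gph1) and the debranching enzyme (Gdb1), and Gac1 directs the phosphatase Glc7 to glycogen synthase. In yeast the store is known to build up as glucose runs low or cells are stressed, and signalling through cAMP and protein kinase A (PKA) holds it back.

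The *dbp2Δ* group comprised 3 libraries of a *MATα* strain in which the gene of the RNA helicase Dbp2 was replaced by *KanR*, with *ura3Δ0*, *leu2Δ0* and *his3Δ0* and functional *TRP1*, *MET* and *LYS* genes. The wild-type group comprised 3 libraries of a strain given as BY4741, *MATa* with *ura3Δ0*, *leu2Δ0*, *his3Δ1* and *met15Δ0*. Mating type and markers thus differ between the strains along with *DBP2* and cannot be told apart from it. Both strains carried the empty *URA3* plasmid pRS426 and were grown at 30°C in medium without uracil and with 2% glucose to an OD600 of 0.5, then given 4-thiouracil at 0.32 mg/ml for 10 min. RNA that had taken up the label was enriched and sequenced, so that the counts are enriched for RNA made during the pulse. The replicates are described as biological, although nothing states whether each came from a separate transformant.

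Gene counts summed to 6968216 to 8659542 in the *dbp2Δ* libraries and 11177517 to 13134963 in the wild-type libraries. *DBP2* had 0, 0 and 2 counts in *dbp2Δ* and 10976, 11136 and 11213 in wild-type. *MET17* (*MET15*) had 1505 to 2030 counts in *dbp2Δ* and 0 in every wild-type library. *LYS2* had 4477 to 5894 counts in *dbp2Δ* and 0 or 1 in wild-type, although the wild-type genotype given lists no *lys2* deletion. The strains thus differ at *LYS2* as well, which cannot be told apart from *DBP2* either. Across genes the *dbp2Δ* libraries correlated with each other at r of 0.992 in log2 CPM (counts per 1000000 of the scaled library), and the wild-type libraries at 0.957 to 0.982. The common biological coefficient of variation was 9.67% in *dbp2Δ* and 26.6% in wild-type. Unless said otherwise, values are CPM of the deposited gene counts after scaling by TMM, which sets libraries level on most of their genes. CPM are relative values of a whole culture, so that less RNA made per cell and fewer cells making it cannot be told apart.

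The stress response element, AGGGG or CCCCT on the other strand, is the site that the transcription factors Msn2 and Msn4 are known to bind, and several glycogen genes are textbook targets of these factors. In the R64 genome, this element was present at least once within 500 bases before the start codon of 8 of the 10 genes, against 34.6% of 5610 tested genes with a coding sequence. At least 2 matches were found before 7 of the 10 (*GSY1*, *GSY2*, *GLC3*, *GPH1*, *GLG2*, *PGM2* and *UGP1*), against 8.31% of the same genes. *PGM2* had 5 matches and *UGP1* 4, *GDB1* had 1, and *GLG1* and *GAC1* had none. The match nearest to the start codon is printed for 7 of the 8 genes, to show the element with the bases on either side of it. Each is read 5′ to 3′ on the strand of the gene, with the element in capitals.
*GSY1*, chrVI:176711-176731, minus strand: aagtaataCCCCTtggaggat
*GSY2*, chrXII:660512-660532, plus strand: gcaattcaCCCCTttctttct
*GLC3*, chrV:132899-132919, plus strand: tttgtccaAGGGGctgttgca
*GDB1*, chrXVI:901844-901864, plus strand: agcagcaaCCCCTtgaaatgg
*GLG2*, chrX:156222-156242, minus strand: taaagatgAGGGGagtagatc
*PGM2*, chrXIII:477810-477830, minus strand: gaacaaacAGGGGttgaaaag
*UGP1*, chrXI:369623-369643, plus strand: ttcccccgCCCCTtctcgaac
These elements begin 332 bases before the start codon of *GSY1*, 196 before *GSY2*, 213 before *GLC3*, 192 before *GDB1*, 107 before *GLG2*, 216 before *PGM2* and 260 before *UGP1*. Both directions of the element were counted, matches may overlap, and a match says only that these letters are in the window.

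The main pattern was a difference in spread: the glycogen genes were steady among *dbp2Δ* libraries and far apart among wild-type libraries. The highest *dbp2Δ* library exceeded the lowest 1.16-fold in the median of the 10 genes (1.06- to 1.42-fold), which is close to the 1.15-fold of 4599 tested genes whose mean CPM lay within that of the 10. Among wild-type libraries the same measure was 2.68-fold in the median (1.63- to 11.9-fold), against 1.30-fold for those 4599 genes. Wild-type replicate 1 was the lowest wild-type library for 9 of the 10 genes and replicate 3 the highest for 9 of the 10, against 32.0% and 32.3% of the 4599 genes. The median log2 ratio of wild-type replicate 3 to replicate 1 was 1.40 for the 10 genes and -0.05 for the 4599. For 5 of the 10 genes all *dbp2Δ* libraries lay between the lowest and the highest wild-type library. What set the wild-type cultures apart was not tested, and the strain differences of the 10 genes are given with and without the wild-type libraries that move them.

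**Figure D1:**
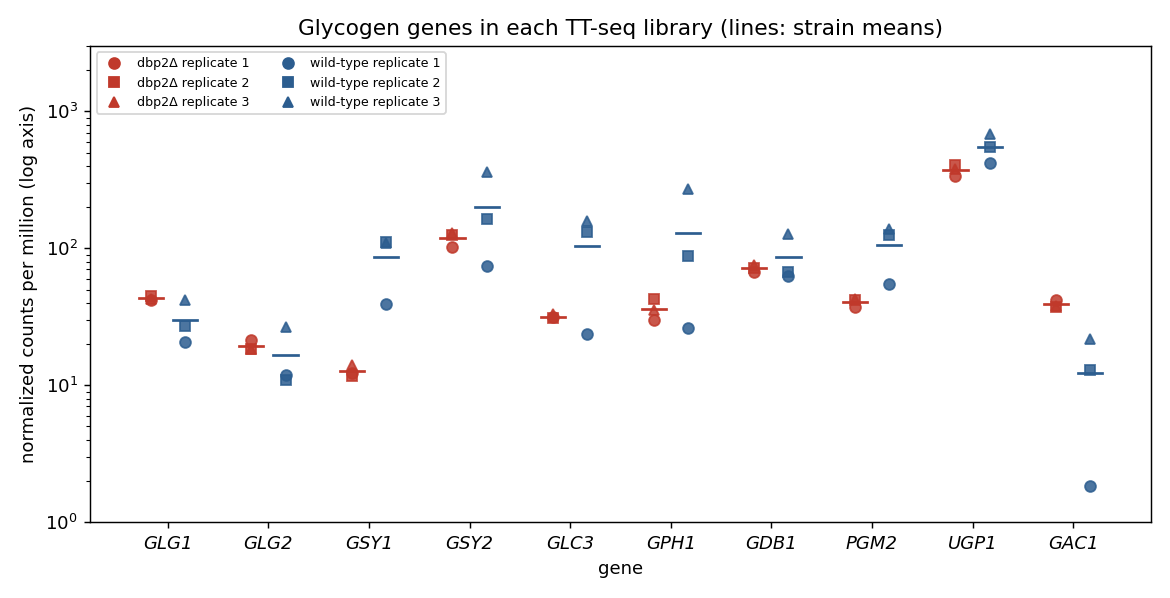
Normalized CPM (log axis) of the 10 glycogen genes in each library, with *dbp2Δ* to the left of wild-type for each gene and lines at the strain means. The *dbp2Δ* libraries lie within 1.42-fold of each other for every gene, while the highest and lowest wild-type libraries differ by 1.63- to 11.9-fold.

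In the test across all genes, 4 of the 10 fell in *dbp2Δ* at an adjusted p under 0.05 (quasi-likelihood test of edgeR, Benjamini-Hochberg adjustment over all genes), namely *GSY1*, *PGM2*, *GLC3* and *UGP1*. Of all genes tested, 22.4% fell by the same rule. None of the 10 rose (19.6% of all genes rose); at an unadjusted p under 0.05 by edgeR 1 was higher, *GAC1*, and DESeq2 called 0 higher. The median log2 fold change was -0.66 for the 10 genes and -0.02 for all genes tested. The libraries of the strains did not overlap for 5 of the 10 genes, *GSY1*, *PGM2* and *UGP1* with *dbp2Δ* lower (28.3% of all genes) and *GLG1* and *GAC1* with *dbp2Δ* higher (27.3% of all genes). In either direction 55.6% of all genes did not overlap, so that the 10 genes did so about as often as genes at large. The number called depended on which libraries were kept. Without wild-type replicate 1, 6 fell and 1 rose. Without wild-type replicate 3, 2 fell and 3 rose, and without wild-type replicate 2, 2 fell and 0 rose. Leaving out *dbp2Δ* replicate 1, 2 or 3 left 1, 2 and 2 lower and 0 higher. A fit with fewer libraries can lose a call though the fold change hardly moves. Without *dbp2Δ* replicate 1, *GLC3* had a log2 fold change of -1.71 (adjusted p = 0.13 by edgeR), against -1.72 with all libraries.

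**Figure D2:**
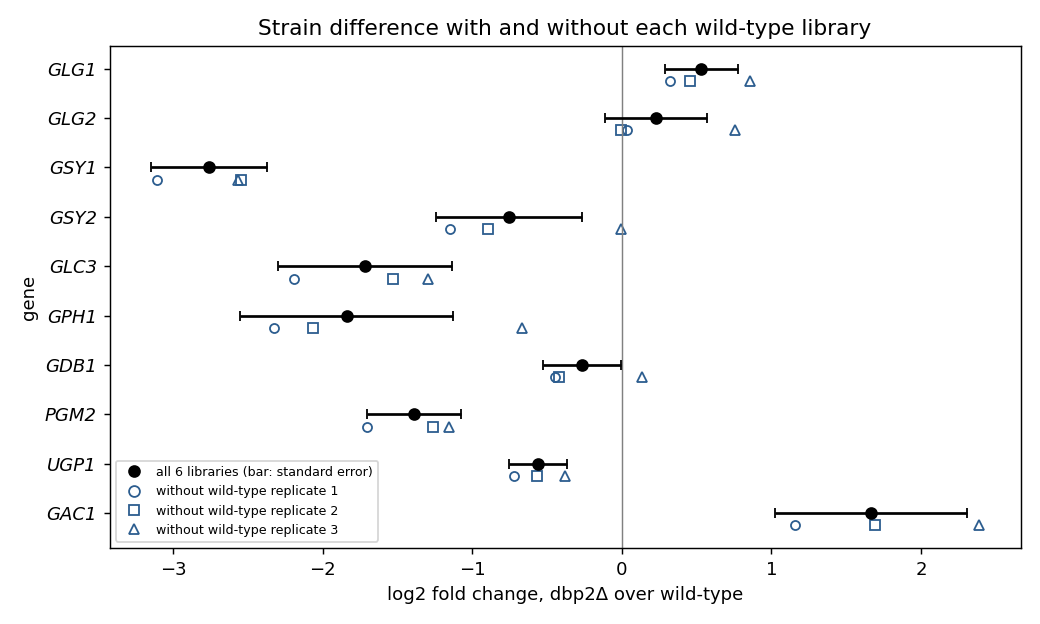
Log2 fold change of *dbp2Δ* over wild-type for each gene, with its standard error over all 6 libraries (black) and the value without each wild-type library (open blue symbols). *GSY1* stays between -3.11 and -2.55 in every fit with a library left out, while *GSY2* moves between -1.15 and -0.01.

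The primers of synthesis did not pass the test over all 6 libraries. *GLG1* (YKR058W, chromosome XI, 552770 to 554620 on the plus strand) had 42.2, 44.8 and 42.9 CPM in *dbp2Δ* and 20.6, 27.0 and 42.0 CPM in wild-type. Every *dbp2Δ* library thus lay above every wild-type library, the highest of them, replicate 3, by a narrow margin. Its log2 fold change was 0.53 ± 0.24 (SE, adjusted p = 0.11 by edgeR) and 0.86 without wild-type replicate 3 (adjusted p = 0.0031 by edgeR). *GLG2* (YJL137C, chromosome X, 154985 to 156127 on the minus strand) had 21.4, 18.5 and 18.3 CPM in *dbp2Δ* and 11.9, 11.0 and 26.7 CPM in wild-type. Wild-type replicate 3 was above the *dbp2Δ* libraries and the other two below them, and the log2 fold change of 0.23 ± 0.34 (SE, adjusted p = 0.61 by edgeR) became 0.76 without that library (adjusted p = 0.0075 by edgeR). Both primers were therefore called higher only when wild-type replicate 3 was left out.

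Of the 2 glycogen synthases, *GSY1* had the largest change of the 10 genes, and *GSY2*, which encodes the predominant form, did not pass the test. *GSY1* (YFR015C, chromosome VI, 174265 to 176391 on the minus strand) had 12.4, 11.7 and 14.1 CPM in *dbp2Δ* and 39.5, 111 and 108 CPM in wild-type. Even the low wild-type replicate 1 was well above the *dbp2Δ* libraries. The log2 fold change was -2.76 ± 0.39 (SE, adjusted p = 0.0022 by edgeR), and *GSY1* was called lower in all 6 fits with a library left out and under all other settings tried. *GSY2* (YLR258W, chromosome XII, 660716 to 662833 on the plus strand) had 102, 126 and 129 CPM in *dbp2Δ* and 74.1, 165 and 363 CPM in wild-type. Wild-type replicate 1 lay below all *dbp2Δ* libraries and replicates 2 and 3 above them. Its log2 fold change was -0.75 ± 0.49 (SE, adjusted p = 0.24 by edgeR), -1.15 without wild-type replicate 1 (adjusted p = 0.021 by edgeR) and -0.01 without wild-type replicate 3.

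Ratios of counts within one library need no scaling between libraries, and 5 were compared. Counts of *GSY2* exceeded those of *GSY1* 8.29-, 10.8- and 9.10-fold in *dbp2Δ* and 1.88-, 1.48- and 3.35-fold in wild-type. The strains did not overlap, and the log2 ratio was 2.15 higher in *dbp2Δ* (mean 3.22 ± 0.19 in *dbp2Δ* and 1.07 ± 0.61 in wild-type, SD, n = 3 each; two-sided exact permutation p = 0.1, the smallest that 3 against 3 allow, and 0.25 adjusted over the 5 ratios). The coding sequences of the 2 synthases shared none of the 2078 windows of 50 bases of *GSY1*. *GSY2* exceeded *GPH1*, for the phosphorylase, 3.41-, 2.95- and 3.62-fold in *dbp2Δ* and 2.84-, 1.87- and 1.33-fold in wild-type, again without overlap (log2 difference 0.79, exact permutation p = 0.1, adjusted p = 0.25). The ratios of *GLG1* to *GLG2* (log2 difference 0.24, exact permutation p = 0.4), *GLC3* to *GDB1* (-1.13, exact permutation p = 0.4) and *PGM2* to *PGM1* (0.31, exact permutation p = 0.8) overlapped between the strains. Without wild-type replicate 1 the *PGM2* to *PGM1* difference was -0.14 and that of *GLC3* to *GDB1* -1.81, and that of *GLC3* to *GDB1* was -0.62 without wild-type replicate 2.

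**Figure D3:**
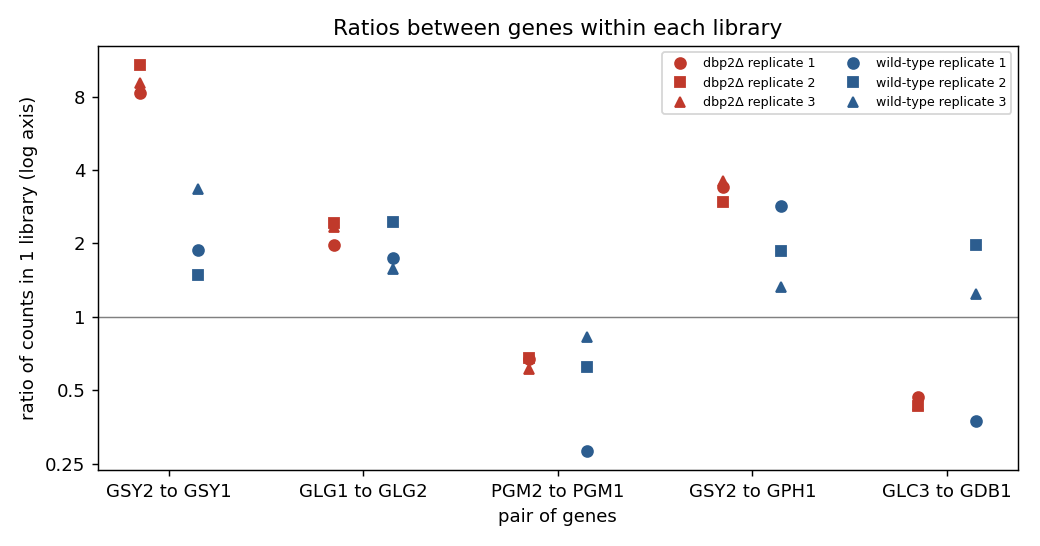
Ratio of the counts of 2 genes within each library (log axis), with *dbp2Δ* to the left of wild-type. The *GSY2* to *GSY1* ratio lies between 8.29 and 10.8 in *dbp2Δ* and between 1.48 and 3.35 in wild-type, while the last pair spreads from 0.375 to 1.97 among wild-type libraries alone.

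*GLC3*, the branching enzyme (YEL011W, chromosome V, 133120 to 135234 on the plus strand), had 31.5, 30.9 and 32.9 CPM in *dbp2Δ* and 23.6, 132 and 158 CPM in wild-type. Wild-type replicate 1 was below the *dbp2Δ* libraries, and the other two were far above them. The fall of 1.72 on the log2 scale (standard error 0.58) passed the test narrowly (adjusted p = 0.047 by edgeR). The log2 fold change was -2.19 without wild-type replicate 1 (adjusted p = 8.7e-05 by edgeR), and the call was lost when any other library was left out (adjusted p = 0.077 to 0.13 by edgeR).

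The breakdown enzymes did not pass the test. *GPH1* (YPR160W, chromosome XVI, 861306 to 864014 on the plus strand) had 30.1, 42.6 and 35.5 CPM in *dbp2Δ* and 26.1, 88.3 and 273 CPM in wild-type. Its wild-type libraries were 10.5-fold apart, and replicate 1 lay below the *dbp2Δ* libraries. Its log2 fold change was -1.84 ± 0.71 (SE, adjusted p = 0.071 by edgeR), -2.32 without wild-type replicate 1 (adjusted p = 0.0055 by edgeR) and -0.67 without wild-type replicate 3 (adjusted p = 0.21 by edgeR). *GDB1* (YPR184W, chromosome XVI, 902044 to 906654 on the plus strand) had 67.0, 72.1 and 75.3 CPM in *dbp2Δ* and 63.0, 67.2 and 127 CPM in wild-type. Only wild-type replicate 3 stood above the *dbp2Δ* libraries, and the log2 fold change of -0.26 ± 0.26 (SE, adjusted p = 0.44 by edgeR) was 0.13 without it.

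Both genes that supply UDP-glucose fell. *PGM2* (YMR105C, chromosome XIII, 475897 to 477606 on the minus strand) had 37.2, 42.1 and 42.5 CPM in *dbp2Δ* and 54.7, 126 and 139 CPM in wild-type. The strains did not overlap, the log2 fold change was -1.39 ± 0.32 (SE, adjusted p = 0.012 by edgeR), and the call was lost only without *dbp2Δ* replicate 1 (adjusted p = 0.054 by edgeR). Without wild-type replicate 1 or 3 its log2 fold change was -1.70 and -1.15. *UGP1* (YKL035W, chromosome XI, 369891 to 371390 on the plus strand), an essential gene, had 335, 402 and 379 CPM in *dbp2Δ* and 417, 549 and 679 CPM in wild-type. Its libraries did not overlap either, although wild-type replicate 1 was only just above *dbp2Δ* replicate 2. Its log2 fold change was -0.56 ± 0.19 (SE, adjusted p = 0.049 by edgeR), and the call was lost in 5 other settings and in all fits with a library left out except that without wild-type replicate 1, with adjusted p from 0.052 to 0.16 by edgeR. Without wild-type replicate 1 or 3 its log2 fold change was -0.72 and -0.38.

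*GAC1*, the targeting subunit (YOR178C, chromosome XV, 667860 to 670241 on the minus strand), was above wild-type in every *dbp2Δ* library. It had 42.2, 37.0 and 37.9 CPM in *dbp2Δ* and 1.85, 13.0 and 21.9 CPM in wild-type, where replicate 1 held 21 counts. The wild-type libraries were 11.9-fold apart. The log2 fold change of 1.67 (standard error 0.64) did not pass the test (adjusted p = 0.070 by edgeR). It was 1.16 without wild-type replicate 1 (adjusted p = 0.0079 by edgeR) and 2.39 without wild-type replicate 3 (adjusted p = 0.0096 by edgeR).

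Per kilobase of coding sequence, *UGP1* stood highest in both strains, with 248 ± 22.8 CPM per kilobase in *dbp2Δ* and 366 ± 87.1 in wild-type (SD, n = 3 each), followed by *GSY2* with 56.2 ± 6.77 in *dbp2Δ* and 94.8 ± 69.9 in wild-type. In *dbp2Δ* the next levels were those of *PGM2* (23.8 ± 1.72) and *GLG1* (23.4 ± 0.744), which did not differ beyond their spread. *GLG2* (17.0 ± 1.55), *GAC1* (16.4 ± 1.16), *GDB1* (15.5 ± 0.898), *GLC3* (15.0 ± 0.472) and *GPH1* (13.3 ± 2.32) followed, neighbours in this order overlapping, and *GSY1* was last with 5.99 ± 0.592. In wild-type the order after *GSY2* was *PGM2* (62.2 ± 26.4), *GLC3* (49.4 ± 33.6), *GPH1* (47.7 ± 47.4) and *GSY1* (40.6 ± 19.1), then *GDB1* (18.6 ± 7.78), *GLG1* (16.2 ± 5.93) and *GLG2* (14.4 ± 7.71), with *GAC1* last (5.14 ± 4.22). In the wild-type order only *UGP1* and *GSY2* were neighbours whose ranges of mean ± SD did not overlap. *GSY1* thus held the lowest level of the 10 in *dbp2Δ*, and *GAC1* in wild-type.

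The mean profile of the 10 genes (each centred on the log2 scale) was -0.29, -0.20 and -0.19 in *dbp2Δ* and -0.76, 0.37 and 1.07 in wild-type. *GSY2* (r = 0.99 over 6 libraries), *GPH1* (0.98) and *GLC3* (0.94) followed it most closely, and *GAC1* (0.32) and *GLG1* (0.35) least. Each of the 10 genes is part of this mean, so these r are in part built in. Outside the lists used here, the genes most like this profile were *SYM1* (r = 0.997), *FMS1* (0.994), *ECM27* (0.985), *CIT1* (0.984) and *DFP3* (0.983). *CIT1*, the mitochondrial citrate synthase, had 519, 540 and 557 CPM in *dbp2Δ* and 448, 671 and 753 CPM in wild-type, with wild-type replicate 1 below and replicates 2 and 3 above all *dbp2Δ* libraries. These correlations describe 6 libraries of 2 strains, and all genes of a library share its depth and scaling.

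For 7 of the 10 genes the deposited antisense counts list transcripts of the opposite strand, 10 in all, and none for *GSY1*, *GDB1* and *UGP1*. Of these 10 transcripts 1 fell, opposite *GLC3* (19.1% of 2167 transcripts tested fell), and 3 rose, 2 overlapping ones opposite *GAC1* and 1 opposite *GLG1* (23.1% rose). The log2 fold change of each had the sign of that of its gene. No source used here gives the strand setting of the counting, so antisense counts may hold reads of the gene. The transcript opposite *GLG1* (554206 to 554718, 80.9% within the gene) had 21.4, 20.0 and 20.1 CPM in *dbp2Δ* and 11.8, 8.54 and 14.0 CPM in wild-type (log2 fold change 0.84 ± 0.19 SE, adjusted p = 0.011 by edgeR). This one was called in all fits with a library left out, unlike *GLG1* itself.

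*GLC3* lies wholly within a transcript of 2721 bp on the minus strand (132677 to 135397), which extends 443 bp beyond the start codon and 163 bp beyond the stop codon, where no other gene is annotated. The transcript had 34.5, 36.3 and 36.9 CPM in *dbp2Δ* and 62.1, 169 and 183 CPM in wild-type, a log2 fold change of -1.95 ± 0.36 (SE, adjusted p = 0.0055 by edgeR). In every library its counts were at least those of *GLC3*. The excess over *GLC3*, a difference taken after seeing the data, was 22, 41 and 35 counts in *dbp2Δ* and 438, 428 and 326 counts in wild-type. After scaling it was 3.02, 5.33 and 4.02 CPM in *dbp2Δ* and 38.5, 37.3 and 25.6 CPM in wild-type, 8.19-fold lower in *dbp2Δ* (means 4.12 ± 1.16 in *dbp2Δ* and 33.8 ± 7.14 in wild-type, SD, n = 3 each; two-sided exact permutation p = 0.1, the smallest possible). In wild-type replicate 1 this excess was as large as in replicate 2, while *GLC3* itself had 23.6 and 132 CPM there. If antisense counts hold the reads of the gene, the excess may come from either strand outside it or from the opposite strand within it. These counts cannot tell those apart. If antisense counts hold no reads of the gene, the excess is only the difference between the counts of opposite strands.

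At *GAC1* the excess was nearly even across the libraries. The longer of its transcripts (2604 bp, 667842 to 670445 on the plus strand) covers the whole gene, with 18 bp beyond its stop codon and 204 bp beyond its start codon. It had 61.3, 58.6 and 58.6 CPM in *dbp2Δ* and 25.1, 37.9 and 44.8 CPM in wild-type (log2 fold change 0.73 ± 0.20 SE, adjusted p = 0.022 by edgeR). The call was lost without wild-type replicate 2 or any *dbp2Δ* library (adjusted p = 0.058 to 0.070 by edgeR). Less the counts of *GAC1*, 19.1, 21.6 and 20.7 CPM remained in *dbp2Δ* and 23.3, 24.9 and 22.9 CPM in wild-type. The strains did not overlap (exact permutation p = 0.1), but *dbp2Δ* was now the lower one, at 0.863 of the wild-type mean, so the direction of the antisense change depends on whether gene reads are among the antisense counts.

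**Figure D4:**
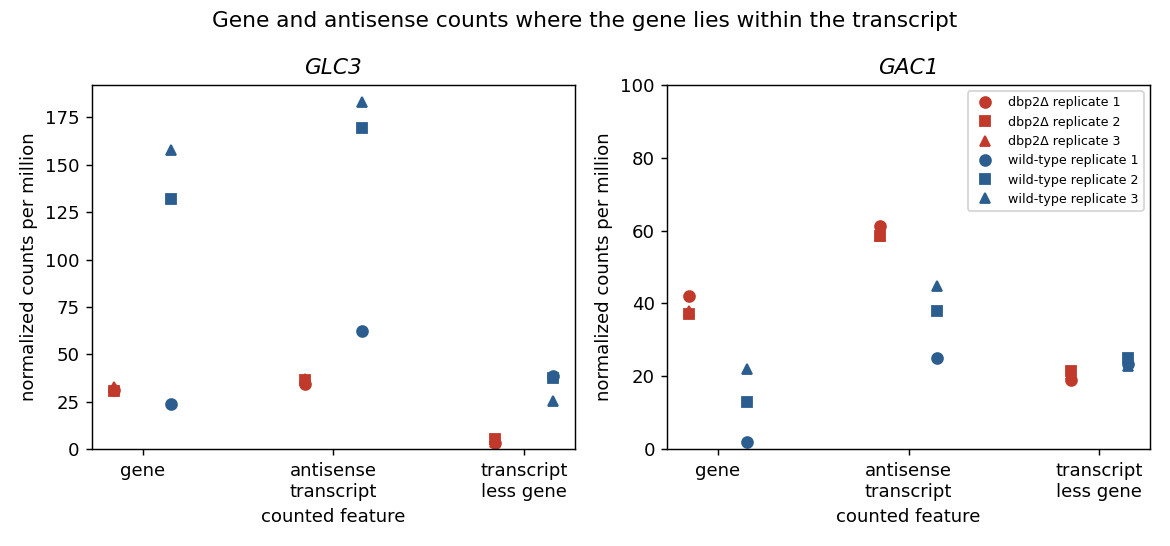
Normalized CPM of *GLC3* (left) and *GAC1* (right), of the antisense transcript that spans each, and of the transcript less the gene, with *dbp2Δ* to the left of wild-type. The difference is 3.02 to 5.33 in *dbp2Δ* and 25.6 to 38.5 in wild-type at *GLC3*, and 19.1 to 24.9 over all libraries at *GAC1*.

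The transcripts opposite the other 4 genes did not pass the test over all libraries. Opposite *GSY2*, where a transcript of 1617 bp lies 45.5% within the gene, the log2 fold change was -0.95 ± 0.47 (SE, adjusted p = 0.13 by edgeR) and -1.35 without wild-type replicate 1 (adjusted p = 0.0051 by edgeR). The transcripts opposite *GPH1* (-0.62), *PGM2* (-0.86) and *GLG2* (0.35 and 0.33) had log2 fold changes on the same side of 0 as their genes, and those opposite *GLG2* were called higher without wild-type replicate 3 (0.79 and 0.80, adjusted p = 0.0068 and 0.0076 by edgeR). Opposite *PGM2* the adjusted p was 0.052 by edgeR, and 0.0033 without wild-type replicate 1. Opposite *GPH1* the log2 fold change was 0.26 without wild-type replicate 3. The transcript of 849 bp opposite *GLG2* lies wholly within the gene, and its counts were at least those of *GLG2* in 3 libraries.

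Other regulators of glycogen metabolism moved in both directions. They were listed together with *SGA1*, which encodes a glucoamylase and not a regulator. Of these 17 genes 5 rose and 5 fell, with a median log2 fold change of -0.09, where 19.6% of all genes tested rose and 22.4% fell. *SGA1* had 14.3, 14.7 and 13.9 CPM in *dbp2Δ* and 2.46, 4.71 and 16.6 CPM in wild-type. It did not pass the test (0.84, adjusted p = 0.29 by edgeR). Of the other subunits that bind the phosphatase Glc7, those that rose were *PIG1* (log2 fold change 1.53 ± 0.22 SE, adjusted p = 0.0024 by edgeR), *GIP2* (0.88) and *REG2* (1.21), while *PIG2* (-0.21, adjusted p = 0.55 by edgeR) and *REG1* (-0.04, adjusted p = 0.85 by edgeR) did not pass the test. *PIG1* had 37.9, 46.6 and 41.8 CPM in *dbp2Δ* and 18.7, 14.7 and 10.3 CPM in wild-type, without overlap. The catalytic subunit *GLC7* did not pass the test (-0.26, adjusted p = 0.12 by edgeR), and its activator *GLC8* fell by 0.52 on the log2 scale. *PCL7* (0.91) and *PCL10* (0.64), cyclins of Pho85, a kinase known to phosphorylate glycogen synthase, rose, and *PCL6* (-0.19) and *PCL8* (-0.09) did not pass the test, while *PHO85* fell by 0.65. *SNF1* (-0.61), for a kinase needed for glycogen storage, *SNF4* (-0.61), for its regulatory subunit, and *PSK1* (-0.64), for a kinase of glycogen synthase, fell as well. *PSK2*, the paralog of *PSK1*, had 229, 220 and 230 CPM in *dbp2Δ* and 202, 173 and 155 CPM in wild-type. Its log2 fold change of 0.36 did not pass the test (adjusted p = 0.060 by edgeR) but did so in 3 other settings (DESeq2, library size only and upper quartile scaling) and without wild-type replicate 1. The calls of *GIP2* and *GLC8* were lost without any one *dbp2Δ* library or wild-type replicate 2, that of *REG2* without *dbp2Δ* replicate 1 or 3, and that of *PHO85* without *dbp2Δ* replicate 1 or 2.

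Of 15 genes of the PKA pathway and of the stress factors downstream of it, 4 rose and 5 fell (median log2 fold change -0.03), against 19.6% and 22.4% of all genes tested. Those that fell included *TPK2*, for a catalytic subunit of PKA (-1.74 ± 0.15 SE, adjusted p = 0.00045 by edgeR), its regulatory subunit *BCY1* (-1.17), adenylate cyclase *CYR1* (-0.94) and the GTPase *RAS2* (-1.68) that activates it. *RAS2* had 49.6, 48.3 and 53.8 CPM in *dbp2Δ* and 113, 185 and 189 CPM in wild-type. *TPK3*, also for a catalytic subunit, did not pass the test (0.18), nor did *RAS1* (-0.11). *PDE2*, for a phosphodiesterase that breaks down cAMP, rose by 1.08 on the log2 scale, and *PDE1*, for another, did not pass the test (-0.03, adjusted p = 0.94 by edgeR). Also higher were *MSN2* (1.10), *MSN4* (1.11) and *GIS1* (0.79), for transcription factors of the stress and stationary-phase response. *MSN2* had 276, 213 and 204 CPM in *dbp2Δ* and 107, 127 and 89.0 CPM in wild-type, so that even the lowest *dbp2Δ* library was well above wild-type. The calls of *MSN4* and of *YAK1*, the fifth gene that fell (-0.74), were lost without any one *dbp2Δ* library, that of *YAK1* also without wild-type replicate 2 and with upper quartile or library-size scaling, and that of *GIS1* without *dbp2Δ* replicate 1.

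**Figure D5:**
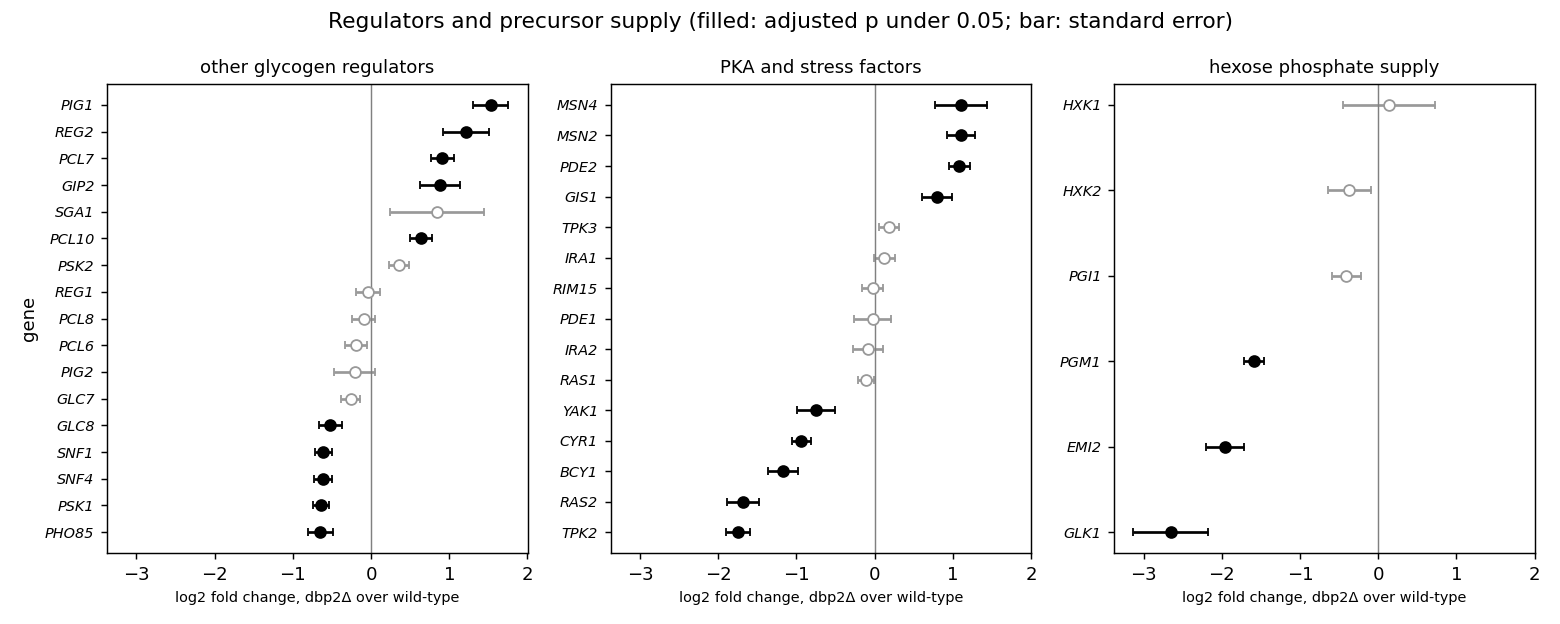
Log2 fold change of *dbp2Δ* over wild-type with its standard error for other regulators of glycogen metabolism, PKA and stress factors, and genes of hexose phosphate supply (filled symbols, adjusted p under 0.05). The glucoamylase gene *SGA1* is shown among the regulators. Of the genes shown, *GLK1* (-2.66) is the lowest and *PIG1* (1.53) the highest.

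Among 6 genes that supply or draw on glucose 6-phosphate 3 fell (22.4% of all genes fell). They were the glucokinase *GLK1* (-2.66 ± 0.47 SE, adjusted p = 0.0049 by edgeR), its paralog *EMI2* (-1.96) and the other phosphoglucomutase *PGM1* (-1.59). Each was called lower in all fits with a library left out. None rose, against 19.6% of all genes (0 at an unadjusted p under 0.05 by edgeR, and 0 by DESeq2). *PGM1* had 55.6, 62.2 and 69.5 CPM in *dbp2Δ* and 194, 203 and 168 CPM in wild-type, so that unlike *PGM2* it was even among the wild-type libraries. Counts of *PGM2* were below those of *PGM1* in every library, at ratios of 0.669, 0.676 and 0.612 in *dbp2Δ* and 0.282, 0.620 and 0.827 in wild-type. *HXK1* had 153, 161 and 179 CPM in *dbp2Δ* and 36.6, 124 and 286 CPM in wild-type, where replicate 1 was lowest and replicate 3 highest. It did not pass the test (0.14, adjusted p = 0.86 by edgeR). *HXK2* had 1178, 1030 and 1157 CPM in *dbp2Δ* and 1554, 1930 and 866 CPM in wild-type, where replicate 3 was lowest. It did not pass the test either (-0.37, adjusted p = 0.31 by edgeR). In the trehalose pathway, which also draws on UDP-glucose, 3 of 7 genes fell (22.4% of all genes). They were *TPS1* (-1.91), *TPS2* (-1.19) and *TPS3* (-0.91), for subunits of the complex that makes trehalose. The trehalases *NTH2* (0.55) and *ATH1* (0.72) rose (19.6% of all genes). The trehalase *NTH1* (-0.51, adjusted p = 0.11 by edgeR) and *TSL1* (-0.56, adjusted p = 0.32 by edgeR), for another subunit of that complex, did not pass the test. Wild-type replicate 1 was again the lowest wild-type library for several of these genes. *TPS1* had 105, 106 and 116 CPM in *dbp2Δ* and 201, 499 and 532 CPM in wild-type, and *TSL1* had 118, 150 and 151 CPM in *dbp2Δ* and 83.8, 199 and 336 CPM in wild-type. Without wild-type replicate 1 there were 5 that fell, *NTH1* and *TSL1* among them, and 2 fell without wild-type replicate 2. The calls of *TPS2* and *NTH2* were lost without *dbp2Δ* replicate 2 or 3 or wild-type replicate 2, that of *TPS2* also without *dbp2Δ* replicate 1.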

How the data were processed

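The authors deposited raw counts per gene (7032 genes) and per antisense transcript (2169), 1 column per library. Processing notes of the submitters list featureCounts, edgeR and the R64 build, with no version. Aligner and strand setting: not given in the sources used here. Symbols and coordinates came from RefSeq R64.

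TMM factors (0.9299 to 1.0445) were computed on all genes before filterByExpr removed low counts. Strains were compared in edgeR 4.0.16 under R 4.3.3 by glmQLFit and glmQLFTest, with strain as the only factor, and p-values were adjusted by Benjamini-Hochberg over all features tested. Features were called at an adjusted p under 0.05. Standard errors (SE) are the log2 fold change over the square root of F. For antisense counts the library sizes and factors of the genes were used. Ratios were tested by exact permutation in scipy 1.17.1, and 0.5 was added to CPM before correlation. The fit was tested on simulated counts with the same spread in both strains. That test therefore does not cover the wider spread among wild-type libraries.

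The members and lists were chosen with earlier results of these data known. Named are all members, the 4 called genes of each list with the largest change, the 5 genes most like the mean profile of the members and the strain checks. Other named genes of the lists, and those shown by library, were picked after seeing their values. A gene of the PKA list and an upstream sequence are not reported here, and counts over that list leave the gene out. The alternatives were DESeq2 1.42.0, library size only, upper quartile scaling, keeping low counts, a replicate block, 1 added to each count of a ratio, TMM on the antisense counts and each library left out. TMM after the filter and antisense less sense counts were added after seeing the data.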

Additional observations from a re-analysis of the deposited data

How the results depend on the processing

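The number of glycogen genes called lower, 4 with all libraries, was 2 with upper quartile scaling and 1 to 6 with a library left out; the number called higher, 0, was 0 to 3. Nothing states whether libraries with the same replicate number were paired. Correlations of their deviations were -0.08, -0.14 and 0.00 over 5943 genes, which cannot settle how the cultures were grown. With the replicate number as a block 2 were lower and 1, *GAC1*, was higher (adjusted p = 0.041 by edgeR), and 2 antisense transcripts were lower. Antisense calls numbered 1 to 5 higher and 1 to 4 lower with a library left out, and 2 lower with TMM on the antisense counts.

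With a library left out, 3 to 6 genes of the list of other regulators, which holds *SGA1*, rose and 3 to 6 fell. In the same fits 2 to 5 of the PKA and stress genes rose, and 1 to 2 trehalose genes rose and 2 to 5 fell. Log2 fold changes ran from -0.44 to 0.13 for *GDB1*, -0.0053 to 0.76 for *GLG2* and -0.98 to 0.26 for the transcript opposite *GPH1*. The difference in the log2 ratio of *PGM2* to *PGM1* ran from -0.14 to 0.64. Antisense less sense counts turned the log2 fold change opposite *GAC1* to -0.21. The call of *UGP1* was also lost with TMM after the filter (adjusted p = 0.053 by edgeR), library size only (0.070), upper quartile scaling (0.077), no filter (0.052) and the block (0.064), and that of *GLC3* with upper quartile scaling (0.057) and the block (0.069). The level of *GAC1* in wild-type replicate 1 rests on 21 counts.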
